A study of Mus musculus with 24 samples.

Results

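The genes examined here encode the receptors for serotonin, dopamine, noradrenaline and acetylcholine. They are the 50 of 56750 entries in the count table whose mouse symbol begins Htr1 to Htr7, or is a Drd, Adra, Adrb or Chrm receptor or a Chrn subunit. There are 14 serotonin, 5 dopamine, 6 alpha adrenergic, 3 beta adrenergic, 5 muscarinic and 17 nicotinic entries, the last including Chrna1os, an antisense RNA next to Chrna1. Of the 50, 39 had a mean of at least 0.3 CPM (counts scaled to library size) over the 24 libraries and are described by family. RNA came from medial prefrontal cortex. The mice carry the label 5xFAD, an Alzheimer's disease model whose human transgenes, APP among them, are driven by the neuronal Thy1 promoter. The 24 bulk libraries form 6 groups of 4, all with the genotype label 5xFAD: GH_Con (labelled control), SI_Con (labelled SI), GH_EE and SI_EE (labelled EE), and GH_WT and SI_WT (labelled WT). From the title of the series, SI marks social isolation and EE an enriched environment. The sources used here give neither what GH and WT stand for, nor the age of the mice, nor whether each library is its own mouse; p-values then measure library-to-library spread, which may be technical. The title also names resocialization, which the labels tie to no group.

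Serotonin, dopamine and noradrenaline reach the prefrontal cortex along axons from brainstem nuclei, and acetylcholine from the basal forebrain. Most of their receptors are G protein-coupled: Gs-coupled receptors raise cyclic AMP, Gi-coupled receptors lower it and open potassium channels, and Gq-coupled receptors activate phospholipase C. The nicotinic receptors and the receptor built from Htr3a are ion channels made of several subunits. These receptors set the excitability of pyramidal cells and interneurons and are known for their part in attention, working memory and mood.

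Some libraries stood apart from the rest before any group was compared. SI_EE 1 held 4656 CPM over 10 cerebellar marker genes against 21.3 to 111 in the other 23 libraries, and the cerebellar genes Gabra6 and Pcp2 were at 342 and 242 CPM there against at most 1.13 and 2.17. Over 10 thalamus and habenula markers, SI_EE 1, GH_WT 2 and GH_WT 4 held 533, 297 and 439 CPM, and the other 21 libraries 65.1 to 125. Of these markers, Gpr151 was at 0.58 CPM in SI_EE 1, beside a median of 0.63, and Tcf7l2 at 53.1 beside 3.99. The sum alone does not tell from which region its reads came. Over 12 striatal markers, SI_EE 1 and GH_WT 1 held 239 and 274 CPM, and the other 22 libraries 505 to 1585. SI_Con 4, SI_EE 3 and GH_WT 2 read 1013, 522 and 321 CPM of Ttr, which defines choroid plexus, against at most 69.2 in the other 21. In GH_Con 2, SI_Con 2, SI_Con 3 and SI_WT 4, longer genes, by annotated exon length, read lower than in the rest. The Spearman correlation between exon length and deviation from the all-library mean was -0.352 to -0.245 there over 19873 genes. In the other 20 libraries it was -0.0972 to 0.199. Xist was at 531 CPM or more in 12 libraries and at 3.71 or less in 12, with 3, 2, 2, 1, 2 and 2 of the former in GH_Con, SI_Con, GH_EE, SI_EE, GH_WT and SI_WT. The human APP entry was read in all 8 libraries labelled WT, at 2199 to 4685 CPM, and was lowest in SI_EE 1, at 337 CPM against 1041 or more in the other 23. Slc17a7, the vesicular glutamate transporter of cortical pyramidal cells, was at a median of 1003 CPM, with SI_EE 1 lowest at 584, but cerebellar granule cells express it too. SI_EE 1 was also the lowest library over the list of cortical pyramidal genes, at 1173 CPM against 1448 to 2588 in the other 23.

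Levels between genes were compared as CPM per kb of annotated exon. By the median of the 24 libraries, the muscarinic gene Chrm1 came first of the 39 at 21.8, followed by Chrm4 at 15.9, Chrm3 at 14.5, Adra1d at 13.4, Drd2 at 12.8, Drd1 at 12.7, Adrb1 at 9.4, Chrna4 at 9.05 and Htr2a at 7.27 CPM per kb. The ranges of neighbours in this order overlapped: Chrm4 ran from 3.41 to 23.1, Chrm3 from 2.3 to 16.8 and Adra1d from 2.6 to 20.7. Summed over the members among these 39, muscarinic genes held 57.2 CPM per kb in the median library, serotonin 31.5 and alpha adrenergic 28.9. Dopamine genes held 26.7, nicotinic 17.4 and beta adrenergic 10.4. SI_EE 1 was the lowest library for 19 of the 39 genes, and its sum over these 39 was 314 CPM against 508 to 874 in the other 23.

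**Figure D1:**
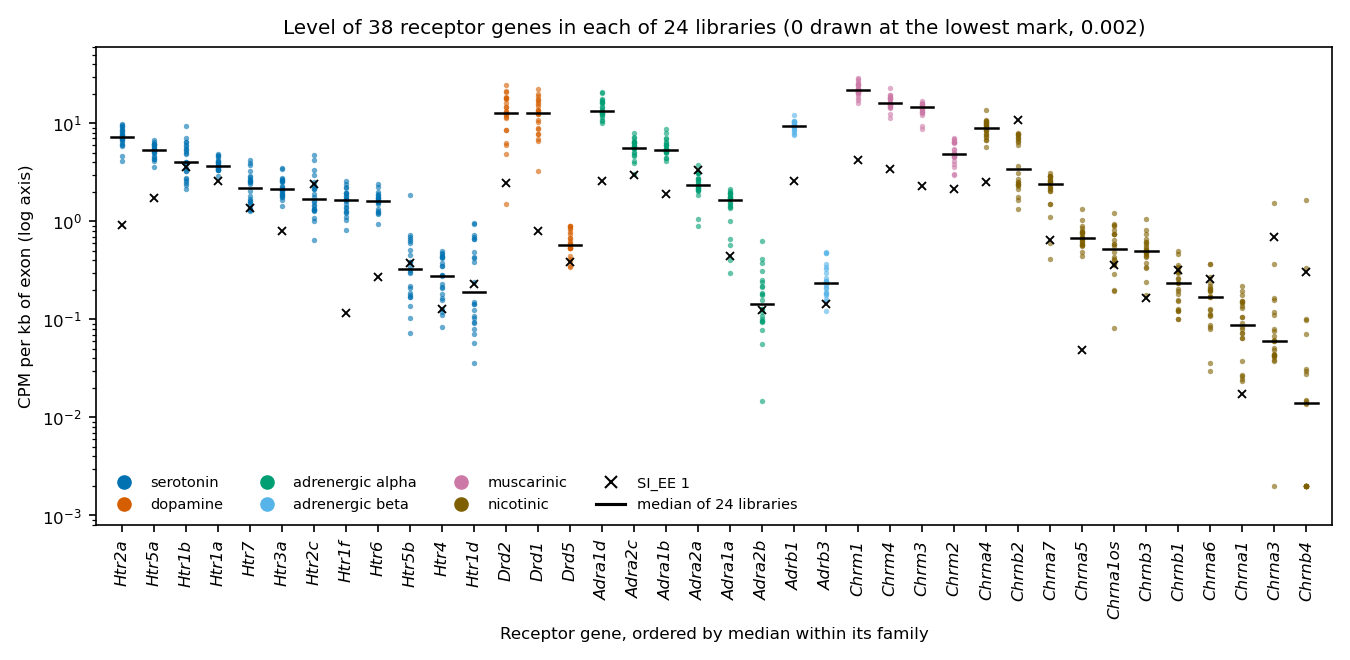
Level of each of 38 of the receptor genes in CPM per kb of exon on a log axis, one point per library, with families in colour, the median of 24 libraries as a bar and SI_EE 1 as a cross. Chrm1 has the highest median (21.8), and the cross is the lowest mark for 19 genes.

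A mean below 0.3 CPM was found for 11 of the 50 entries. Drd4, a Gi-coupled dopamine receptor, was just outside at 0.291 CPM and Chrna2 next at 0.202, while Chrna1os, Chrnb4 and Chrna1 were just inside at 0.391, 0.421 and 0.431. The others below were Htr2b, Htr3b, Drd3, Chrm5, Chrna9, Chrna10, Chrnd, Chrne and Chrng. Chrnd and Chrng, subunits of the muscle receptor, had no read in any library, which allows up to 0.00334 CPM over all 24 (3 reads of the total, counting error only). The filter on low counts passed 42 of the 50: the 39, plus Drd3, Drd4 and Chrna2.

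Among the 14 serotonin genes, the Gq-coupled Htr2a, known in cortex for its place on pyramidal cells of the middle and deep layers, was highest. Htr2a (ENSMUSG00000034997, chromosome 14, 74640840 to 74709494, plus strand) had a median of 40.8 CPM. Htr2a was at 41.3, 39.8, 42.3 and 43.7 CPM in GH_Con, at 51.5, 38.9, 38.9 and 54.1 in GH_EE and at 32.9, 34.2, 45.2 and 33.9 in GH_WT. For Htr2a, the isolated groups read 36.2, 26, 48.9 and 55.4 CPM in SI_Con, 5.12, 52.3, 40.2 and 37.8 in SI_EE and 46.8, 42.2, 47.6 and 23 in SI_WT. SI_EE 1 was far below every other library, and SI_WT 4 and SI_Con 2 came next from below. Without SI_EE 1 the 23 libraries ran from 23 to 55.4 CPM and the 6 groups overlapped. The Gi-coupled Htr5a was at a median of 29 CPM (9.28 to 36.2).

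Htr1a (ENSMUSG00000021721, chromosome 13, 105443639 to 105448122, plus strand), the Gi-coupled receptor that inhibits pyramidal cells and serotonin neurons, varied least for its level. Htr1a was at 18.4, 15.1, 21 and 21.4 CPM in GH_Con, at 17, 15.3, 16.2 and 15.6 in GH_EE and at 16, 17.8, 20.5 and 16.4 in GH_WT. For Htr1a, the isolated groups read 18.9, 16.1, 21.7 and 18 CPM in SI_Con, 11.5, 17.7, 14.8 and 16.8 in SI_EE and 18.2, 15.2, 14.8 and 13.1 in SI_WT. Its coefficient of biological variation, the spread between libraries of a group beyond counting error, was 15.5% against 25% for genes of its abundance, the smallest ratio of the 39. Htr1a read lower in the EE libraries than in the Con libraries averaged over housing, with a log2 fold change of -0.27 ± 0.10 (SE; edgeR adjusted p = 0.337), although the ranges overlapped and the change did not pass the threshold.

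Htr1b (ENSMUSG00000049511, chromosome 9, 81628291 to 81633828, minus strand), a Gi-coupled receptor on axon terminals, had the smallest p of the receptors for EE. Htr1b was at 15.5, 18.8, 15.5 and 18.8 CPM in GH_Con, at 33.6, 19.2, 25.8 and 44.8 in GH_EE and at 11.1, 13, 23.7 and 12.8 in GH_WT. For Htr1b, the isolated groups read 12.2, 10.2, 16.5 and 27.8 CPM in SI_Con, 16.8, 30.2, 22.8 and 28.5 in SI_EE and 30.1, 24.8, 25.7 and 11.6 in SI_WT. All 4 GH_EE libraries were above all 4 GH_Con libraries, while SI_Con and SI_EE overlapped. Group means were 17.2 ± 1.88 CPM in GH_Con, 30.8 ± 11 in GH_EE, 16.7 ± 7.88 in SI_Con and 24.6 ± 6.04 in SI_EE (SD, n = 4). EE averaged over housing gave a log2 fold change of 0.70 ± 0.23 (SE; edgeR adjusted p = 0.284), and GH_EE against GH_Con a log2 fold change of 0.84 ± 0.32 (SE; edgeR adjusted p = 0.664). With the striatal list as a covariate the EE estimate for Htr1b was 0.74. D430036J16Rik, which overlaps Htr1b on the other strand, was at 1.52 to 5.75 CPM, and without strand in the counting the reads of such a pair cannot be told apart.

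Htr2c (ENSMUSG00000041380, chromosome X, 146962513 to 147197277, plus strand), a Gq-coupled receptor abundant in choroid plexus and present in thalamus, habenula and deep cortical layers, was high in single libraries. Htr2c was at 12.2, 13.8, 12.1 and 20 CPM in GH_Con, at 23.7, 17.8, 15.2 and 16.4 in GH_EE and at 10.01, 44.4, 20.2 and 39 in GH_WT. For Htr2c, the isolated groups read 19.8, 12.4, 9.35 and 22 CPM in SI_Con, 22.6, 11.9, 27.9 and 31.2 in SI_EE and 13.5, 12.3, 14.7 and 6.05 in SI_WT. GH_WT 2 and GH_WT 4 were the highest of the 24, and they are among the 3 libraries with high thalamus and habenula markers. GH_WT 2 also read 321 CPM of Ttr. In SI_Con 4 and SI_EE 3, with the most Ttr, Htr2c was at 22 and 27.9 CPM. SI_EE 4, outside both sets, had Htr2c at 31.2 CPM with Ttr at 14.2, below its median of 15.6. Outside the 3 libraries with high thalamus and habenula markers, SI_EE 4 had the highest sum of these markers, at 125 CPM. Tcf7l2 was at 13.6 CPM in SI_EE 4 beside a median of 3.99. SI_EE 1, with the highest thalamus and habenula sum, had Htr2c at 22.6 CPM. SI_WT against GH_WT gave a log2 fold change of -1.28 ± 0.39 (SE; edgeR adjusted p = 0.698); it was -0.37 without SI_EE 1, GH_WT 2 and GH_WT 4. The part of tissue from other regions in these values was not tested. In bulk RNA, fewer cells of a type and less RNA per cell cannot be told apart.

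Htr3a (ENSMUSG00000032269, chromosome 9, 48899213 to 48911099, minus strand), the channel subunit that marks a class of cortical interneurons, lay lower in all 4 SI_WT than in all 4 SI_Con libraries. Htr3a was at 4.02, 5.42, 3.69 and 3.67 CPM in GH_Con, at 4.27, 5.51, 3.95 and 4.45 in GH_EE and at 5.59, 3.85, 4.46 and 5.22 in GH_WT. For Htr3a, the isolated groups read 4.77, 5.73, 7.25 and 5.32 CPM in SI_Con, 1.66, 7.14, 3.47 and 3.83 in SI_EE and 4.72, 4.21, 4.41 and 3.01 in SI_WT. The separation rested on small steps, and the edgeR estimate for SI_WT against SI_Con was -0.49 ± 0.28 (SE; log2, adjusted p = 1).

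Htr5b (ENSMUSG00000050534, chromosome 1, 121509842 to 121528465, minus strand), a receptor known from the habenula, was low in most libraries. Htr5b was at 0.571, 0.425, 0.658 and 1.34 CPM in GH_Con, at 0.61, 1.16, 0.142 and 0.265 in GH_EE and at 0.592, 3.6, 0.343 and 1.28 in GH_WT. For Htr5b, the isolated groups read 0.977, 0.739, 1.4 and 1.21 CPM in SI_Con, 0.731, 0.327, 0.873 and 0.738 in SI_EE and 0.2, 0.33, 0.357 and 0.405 in SI_WT. GH_WT 2 stood at 3.6 CPM against 0.142 to 1.40 in the other 23, and the 4 SI_WT libraries lay below the 4 SI_Con libraries. SI_WT against SI_Con gave a log2 fold change of -1.74 ± 0.64 (SE; edgeR adjusted p = 1), and the WT by housing interaction a log2 fold change of -2.70 ± 0.88 (SE; edgeR adjusted p = 1). Neither passed the threshold, and without SI_EE 1, GH_WT 2 and GH_WT 4 the interaction estimate was -1.06.

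The other serotonin genes are given by their range. The Gi-coupled Htr1f ran from 0.303 to 6.63 CPM, and the Gs-coupled Htr4, Htr6 and Htr7 from 0.409 to 2.45, 0.63 to 5.57 and 4.29 to 14.4. Htr6 was lower in all 4 SI_Con than in all 4 GH_Con libraries, 3.1, 3.78, 2.21 and 3.68 against 3.86, 3.86, 4.64 and 5.19 CPM, with an edgeR estimate of -0.46 ± 0.36 (SE; log2, adjusted p = 0.883). Htr1d, Gi-coupled like Htr1b, ran from 0.115 to 3.09 CPM on 4 to 105 reads per library. High and low libraries of Htr1d and Htr7 occurred side by side within most groups, and both genes are singled out here after their values were seen. GH_EE held 0.186, 0.463, 2.98 and 3.09 CPM of Htr1d and 14.4, 5.46, 4.51 and 8.52 of Htr7.

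Both major dopamine receptors had wide spreads. Drd1 (ENSMUSG00000021478, chromosome 13, 54051183 to 54055705, minus strand) encodes the Gs-coupled D1 receptor. Drd1 was at 48.1, 45.3, 54.1 and 44.8 CPM in GH_Con, at 46.7, 38.9, 63.4 and 81.6 in GH_EE and at 11.7, 25.3, 71.8 and 32.3 in GH_WT. For Drd1, the isolated groups read 24, 28.5, 37.4 and 49.4 CPM in SI_Con, 2.92, 57, 49.8 and 64 in SI_EE and 68.1, 32, 60.3 and 28.2 in SI_WT. SI_EE 1 and GH_WT 1 were the lowest libraries and GH_EE 4 and GH_WT 3 the highest, and every pair of groups overlapped. Drd2 (ENSMUSG00000032259, chromosome 9, 49340627 to 49408177, plus strand) encodes the Gi-coupled D2 receptor. Drd2 was at 37.5, 45.9, 37.6 and 34.1 CPM in GH_Con, at 28.6, 30.6, 54 and 62.6 in GH_EE and at 3.81, 12.4, 52.7 and 21.8 in GH_WT. For Drd2, the isolated groups read 16.1, 15.3, 31.3 and 32.4 CPM in SI_Con, 6.25, 46.7, 32.9 and 46.2 in SI_EE and 44.9, 21.6, 40.6 and 29.7 in SI_WT. All 4 SI_Con libraries lay below all 4 GH_Con libraries for Drd2, as 23.8 ± 9.32 against 38.8 ± 5.03 CPM (SD, n = 4), with a log2 fold change of -0.70 ± 0.57 (SE; edgeR adjusted p = 0.887). Drd5, the other Gs-coupled dopamine receptor, stayed at 1.09 to 2.8 CPM.

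Both genes are far more abundant in striatum than in cortex, and their level followed 12 striatal marker genes that include neither of them. Across 24 libraries, log2 CPM of Drd2 and the mean log2 CPM of the striatal list had Pearson's r = 0.967 and Spearman's rho = 0.982. Drd1 had r = 0.959 and rho = 0.941. For both genes and both measures the two-sided permutation p was 1e-05, the smallest that 100000 permutations can give, and the Pearson p adjusted over the 39 relations computed was 0.000195. Without SI_EE 1 and GH_WT 1, the libraries farthest from the median of the list, r was 0.976 for Drd2 and 0.932 for Drd1, and over deviations from the group means it was 0.98 and 0.963. With the list as a covariate, the Drd2 estimate for SI_Con against GH_Con was -0.25 in place of -0.70, and that of Drd1 was 0.04 in place of -0.46.

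In all, 11 of the 39 relations had an adjusted Pearson permutation p under 0.05, each with r above 0. By Spearman's rho, 6 relations above 0 and 3 below 0 had an adjusted permutation p under 0.05. The 3 below 0 were Chrna6 with rho = -0.617 (adjusted p = 0.0121), Chrnb4 with -0.612 (adjusted p = 0.0121) and Htr5b with -0.53 (adjusted p = 0.0377), all genes of few reads. Their Pearson's r was -0.457, -0.482 and -0.313 (adjusted p = 0.0647, 0.0627 and 0.205), and -0.483, -0.575 and -0.6 without SI_EE 1 and GH_WT 1. Chrm4 had r = 0.651 (adjusted p = 0.0423) and rho = 0.277 (permutation p = 0.193), and r = 0.19 without SI_EE 1 and GH_WT 1. Leaving out SI_EE 1 alone gave r = 0.189 and leaving out GH_WT 1 alone r = 0.78, so the relation of Chrm4 rested on SI_EE 1. Chrm1 had r = 0.637 (adjusted p = 0.0468), rho = 0.295 (permutation p = 0.163) and r = 0.207 without both libraries, with r = 0.124 without SI_EE 1 alone and 0.791 without GH_WT 1 alone. Htr1b, which striatal neurons also express, had r = 0.545 (adjusted p = 0.0272), rho = 0.677 (permutation p = 0.00036) and r = 0.668 without both. Others among the 11 also fell without both libraries. Htr2a went from r = 0.755 to 0.54, Htr6 from 0.685 to 0.423 and Htr1f from 0.673 to 0.308. Chrm2 went from 0.516 to 0.291 and Drd5 from 0.49 to 0.187.

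**Figure D2:**
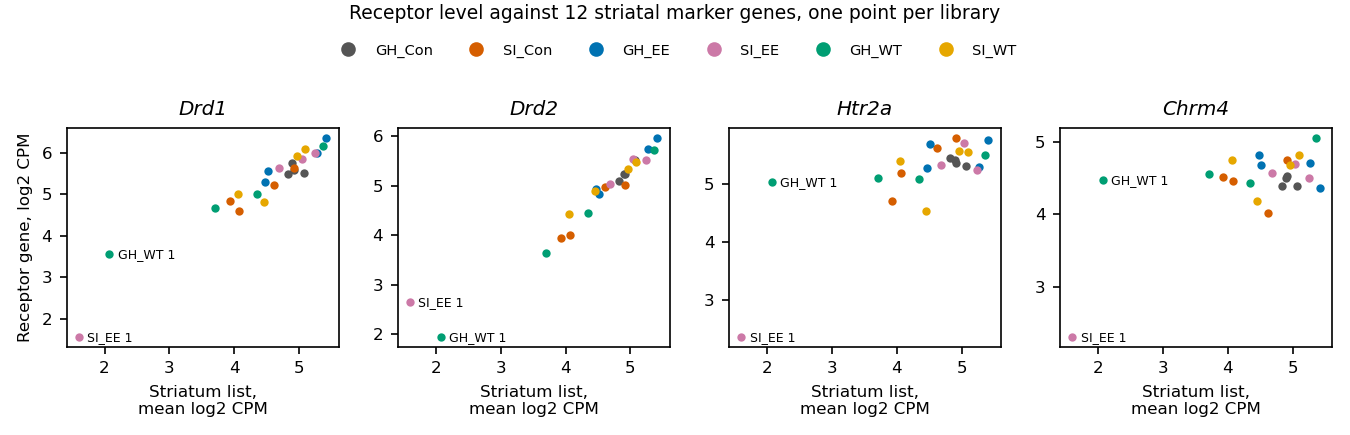
Log2 CPM of Drd1, Drd2, Htr2a and Chrm4 against the mean log2 CPM of 12 striatal marker genes, one point per library coloured by group. Drd1 and Drd2 lie along a line through all groups (r = 0.959 and 0.967), while for Chrm4 the 2 libraries at the left, SI_EE 1 and GH_WT 1, differ, with only SI_EE 1 low in Chrm4 itself.

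The 250 bases before the RefSeq start of Drd2 are shown because Drd2 followed the striatal genes most closely. Capitals mark GGGCGG, the core of the GC box, or its reverse complement CCGCCC; both strands were searched, and 32.7% of 32851 promoter windows of this length hold the motif. The window is chr9:49340153-49340402, plus strand, from RefSeq on GRCm38.p6, with 68.8% G and C against a median of 52.4% over all windows. The window ends before the gene start given above, 49340627, which comes from another annotation. It holds 1 match on each strand, which is a description of these letters only.
Drd2: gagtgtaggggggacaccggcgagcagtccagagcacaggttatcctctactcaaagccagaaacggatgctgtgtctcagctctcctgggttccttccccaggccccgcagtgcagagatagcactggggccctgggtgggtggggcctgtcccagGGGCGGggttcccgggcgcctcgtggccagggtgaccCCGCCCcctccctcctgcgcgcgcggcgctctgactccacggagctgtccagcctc

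The 6 alpha adrenergic genes bind noradrenaline. Of the Gq-coupled ones, Adra1d had a median of 25.4 CPM (4.94 to 39.4), Adra1b 18.3 (6.43 to 29.4) and Adra1a 14.3 (2.6 to 18.8). Adra1a was at 5, 5.73, 3.56 and 2.6 CPM in the 4 libraries where longer genes read lower and at 3.91 in SI_EE 1, against 8.85 to 18.8 in the other 19; the part of transcript length in this was not tested. Among the Gi-coupled ones, Adra2c had a median of 19.4 CPM (10.1 to 27.7) and Adra2b, at 0.0589 to 2.54 CPM, was near the lower end of the families. All 4 GH_WT libraries lay below all 4 GH_Con and all 4 SI_WT libraries for Adra2c, at 16, 10.5, 19.1 and 14.2 CPM. GH_WT against GH_Con gave a log2 fold change of -0.47 ± 0.23 (SE; edgeR adjusted p = 1). Adra2c also followed the striatal list (r = 0.695, adjusted p = 0.00907; rho = 0.607, permutation p = 0.00217; r = 0.639 without SI_EE 1 and GH_WT 1).

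Adra2a (ENSMUSG00000033717, chromosome 19, 54044151 to 54048982, plus strand), the receptor on pyramidal spines through which noradrenaline strengthens working memory, had the smallest p of the receptors for SI_WT against SI_Con. Adra2a was at 10.3, 14.9, 10.5 and 13.4 CPM in GH_Con, at 11, 10.6, 5.08 and 12.3 in GH_EE and at 11.7, 15, 13.2 and 13.1 in GH_WT. For Adra2a, the isolated groups read 10.1, 15, 18.3 and 15.3 CPM in SI_Con, 16.2, 12, 9.92 and 11.2 in SI_EE and 4.32, 8.92, 10.2 and 10.7 in SI_WT. The SI_WT libraries were lowest as a group, all 4 below the GH_WT libraries, and SI_WT 1 was the lowest of the 24. SI_WT against SI_Con gave a log2 fold change of -0.79 ± 0.26 (SE; edgeR adjusted p = 1), and SI_WT against GH_WT a log2 fold change of -0.64 ± 0.26 (SE; edgeR adjusted p = 0.847). Without SI_WT 1 the estimate against GH_WT was -0.41 and that against SI_Con -0.57.

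Of the Gs-coupled beta receptors, Adrb1 (ENSMUSG00000035283, chromosome 19, 56722199 to 56733113, plus strand) made up most of the family's reads. Adrb1 was at 27.6, 33, 25.6 and 32.5 CPM in GH_Con, at 35, 31.8, 31.4 and 29.6 in GH_EE and at 35.9, 32.8, 35.2 and 28.6 in GH_WT. For Adrb1, the isolated groups read 31.5, 35.8, 31.4 and 31 CPM in SI_Con, 8.75, 34.7, 35 and 26.2 in SI_EE and 33.3, 40.8, 30.9 and 31.8 in SI_WT. SI_EE 1 lay far below the rest, and the other 23 libraries stayed within 25.6 to 40.8 CPM with every group overlapping every other. Adrb3 (ENSMUSG00000031489, chromosome 8, 27225776 to 27250616, minus strand), known from fat tissue, was at 1.6, 0.824, 1.63 and 1.24 CPM in GH_Con and 0.822, 0.412, 0.767 and 0.707 in GH_EE, on 16 to 61 reads per library. The groups did not overlap for Adrb3, though GH_Con 2 lay only just above GH_EE 1. GH_EE against GH_Con gave a log2 fold change of -0.97 ± 0.37 (SE; edgeR adjusted p = 0.664) for Adrb3. Gm45470, antisense to Adrb3, was at 0.48 to 2.59 CPM.

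The muscarinic family was led by Chrm1 (ENSMUSG00000032773, chromosome 19, 8663789 to 8683587, plus strand), the Gq-coupled M1 receptor of pyramidal cells. Chrm1 was at 127, 139, 135 and 112 CPM in GH_Con, at 188, 149, 139 and 174 in GH_EE and at 145, 117, 161 and 134 in GH_WT. For Chrm1, the isolated groups read 165, 137, 146 and 183 CPM in SI_Con, 27.6, 158, 131 and 131 in SI_EE and 165, 160.4, 143 and 104 in SI_WT. Apart from SI_EE 1, the libraries ran from 104 to 188 CPM, and no 2 groups separated. Chrm3, also Gq-coupled, was at 54.4 to 105 CPM in those 23 libraries and 14.4 in SI_EE 1. Chrm4 (ENSMUSG00000040495, chromosome 2, 91927249 to 91928688, plus strand) encodes the Gi-coupled M4 receptor. Chrm4 was at 23.1, 20.9, 22.5 and 20.9 CPM in GH_Con, at 25.7, 28.3, 26.1 and 20.6 in GH_EE and at 22.1, 23.4, 33.2 and 21.5 in GH_WT. For Chrm4, the isolated groups read 22, 22.8, 16.2 and 26.9 CPM in SI_Con, 4.92, 25.8, 23.7 and 22.5 in SI_EE and 28.1, 26.9, 25.7 and 18.1 in SI_WT. It stayed at 16.2 to 33.2 CPM outside SI_EE 1. Chrm2, the Gi-coupled M2 receptor on cholinergic terminals and interneurons, was at 24.8, 23.2, 27.8 and 27.3 CPM in GH_Con and at 28.5, 29.6, 28 and 29.97 in GH_WT. These Chrm2 values did not overlap, with an edgeR estimate of 0.17 ± 0.29 (SE; log2, adjusted p = 1).

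Of the 17 nicotinic entries, the subunits of the main brain receptor, Chrna4 and Chrnb2, had the most reads. Chrna4 (ENSMUSG00000027577, chromosome 2, 181018380 to 181043546, minus strand) encodes the alpha4 subunit. Chrna4 was at 36.8, 33.7, 49.9 and 42.4 CPM in GH_Con, at 51.1, 54, 51.8 and 47 in GH_EE and at 45.2, 52.6, 51 and 68 in GH_WT. For Chrna4, the isolated groups read 53.1, 37.4, 28.6 and 42.6 CPM in SI_Con, 12.5, 39, 48.2 and 38.6 in SI_EE and 48.1, 41.9, 45.7 and 33.7 in SI_WT. SI_EE 1 was lowest and GH_WT 4 highest, and the other 22 libraries stayed within 28.6 to 54 CPM. SI_EE against GH_EE gave a log2 fold change of -0.56 ± 0.26 (SE; edgeR adjusted p = 0.568); without SI_EE 1 the estimate was -0.28.

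Chrnb2 (ENSMUSG00000027950, chromosome 3, 89746195 to 89764632, minus strand), the beta2 subunit that assembles with alpha4, split into levels with a gap between them. Chrnb2 was at 19.3, 50.4, 20.3 and 18 CPM in GH_Con, at 21.1, 66.4, 64.9 and 26.2 in GH_EE and at 13.8, 20.9, 19.9 and 30.7 in GH_WT. For Chrnb2, the isolated groups read 63.9, 14.8, 55.7 and 20.2 CPM in SI_Con, 90.8, 54.2, 57.4 and 60.9 in SI_EE and 22.7, 59, 64.9 and 11.2 in SI_WT. In 13 libraries Chrnb2 lay at 11.2 to 30.7 CPM and in 11 at 50.4 to 90.8, with none between. The higher libraries numbered 1 in GH_Con, 2 in SI_Con, 2 in GH_EE, 4 in SI_EE, 0 in GH_WT and 2 in SI_WT. Chrna4 showed no such split. Averaged over the 3 arms, isolation gave a log2 fold change of 0.65 ± 0.31 (SE; edgeR adjusted p = 0.579) for Chrnb2. Its biological coefficient of variation was 51.5% against 22.1% for genes of its abundance. Adar, which overlaps Chrnb2 on the other strand, was at 166 to 255 CPM, and its highest and lowest libraries were GH_EE 4 and GH_Con 4, both in the lower set for Chrnb2.

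The sequence before the Chrnb2 start is shown because of that gap. The window is chr3:89764633-89764882, minus strand, from RefSeq on GRCm38.p6, with 59.6% G and C. Neither GGGCGG nor CCGCCC occurs in it, which says only that these letters are not in this window.
Chrnb2: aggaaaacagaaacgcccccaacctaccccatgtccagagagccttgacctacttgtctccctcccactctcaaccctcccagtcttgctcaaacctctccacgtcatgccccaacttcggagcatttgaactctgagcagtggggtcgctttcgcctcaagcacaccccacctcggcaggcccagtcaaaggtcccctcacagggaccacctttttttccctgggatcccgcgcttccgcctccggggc

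Chrna7 (ENSMUSG00000030525, chromosome 7, 63098692 to 63212569, minus strand) forms receptors from alpha7 subunits alone. Chrna7 was at 11.4, 5, 11.6 and 9.25 CPM in GH_Con, at 11, 12.6, 13.1 and 10.2 in GH_EE and at 10.5, 12.2, 13.9 and 6.84 in GH_WT. For Chrna7, the isolated groups read 11.9, 6.76, 2.71 and 9.28 CPM in SI_Con, 2.87, 9.72, 11.6 and 9.89 in SI_EE and 13.1, 11, 12.9 and 1.85 in SI_WT. In GH_Con 2, SI_Con 2, SI_Con 3 and SI_WT 4, the libraries with lower long genes, Chrna7 was at 5, 6.76, 2.71 and 1.85 CPM. SI_EE 1 read 2.87 CPM, and the other 19 libraries 6.84 to 13.9. All groups overlapped. Chrna7 has 4505 bases of exon, and receptor genes of about this length or more differed among themselves there. In the same 4 libraries, Adra1a (8728 bases) read 5, 5.73, 3.56 and 2.6 CPM beside a median of 14.3. Htr2c (9328 bases) read 13.8, 12.4, 9.35 and 6.05 CPM, all below its median of 15.8. Chrnb2 (8380 bases) read 50.4, 14.8, 55.7 and 11.2 CPM beside a median of 28.5. Htr1a (4484 bases) read 15.1, 16.1, 21.7 and 13.1 CPM beside a median of 16.6. The part of transcript length in the Chrna7 values was not tested.

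**Figure D3:**
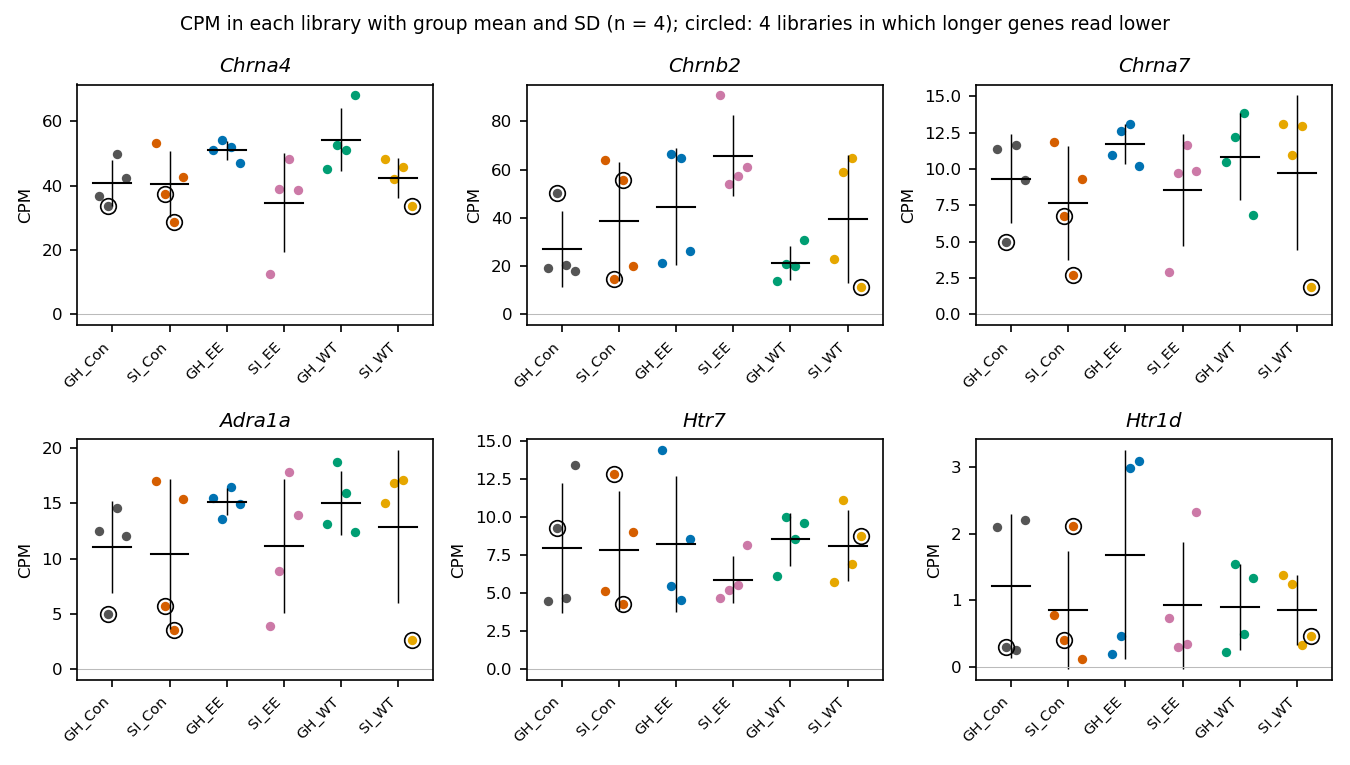
CPM of Chrna4, Chrnb2, Chrna7, Adra1a, Htr7 and Htr1d in each library by group, with the mean as a bar, the SD (n = 4) as a line and the 4 libraries with lower long genes circled. Chrnb2 has no library between 30.7 and 50.4 CPM, and the circled libraries are the lowest of their groups for Adra1a and Chrna7.

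Chrna3 and Chrnb4 encode the alpha3 and beta4 subunits of the receptor known from the medial habenula and autonomic ganglia. They lie together on chromosome 9, minus strand, Chrna3 at 55010111 to 55026562 and Chrnb4 at 55028154 to 55048779, with 1591 bases between them. Chrna5, on the plus strand, ends 2331 bases before Chrna3. The 250 bases before the Chrna3 start (chr9:55026563-55026812, minus strand, RefSeq, GRCm38.p6) are shown because Chrna3 had the smallest p in several comparisons. They hold 63.2% G and C and 1 GC-box core on the reverse strand, in capitals.
Chrna3: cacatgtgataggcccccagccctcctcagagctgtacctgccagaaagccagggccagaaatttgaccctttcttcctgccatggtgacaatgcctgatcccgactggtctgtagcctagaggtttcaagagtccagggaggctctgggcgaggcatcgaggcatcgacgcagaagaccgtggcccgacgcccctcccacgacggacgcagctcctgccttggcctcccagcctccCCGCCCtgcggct

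Chrna3 was at 0.272, 0.585, 0.229 and 0.827 CPM in GH_Con, at 0.398, 0.36, 0.199 and 0 in GH_EE and at 0.254, 8.1, 0.314 and 1.95 in GH_WT. For Chrna3, the isolated groups read 0.23, 0.423, 0.632 and 0.201 CPM in SI_Con, 3.68, 0.327, 0.318 and 0.874 in SI_EE and 0.22, 0.22, 0.23 and 0.232 in SI_WT. GH_WT 2, SI_EE 1 and GH_WT 4 stood above all others for Chrna3, which ran from 0 to 0.874 CPM in the other 21 libraries. Chrnb4 was at 0.0544, 0.372, 0 and 0.103 CPM in GH_Con, at 0.265, 0.0515, 0 and 0 in GH_EE and at 0.0564, 6.17, 0 and 1.26 in GH_WT. For Chrnb4, the isolated groups read 0, 0.0528, 0 and 0 CPM in SI_Con, 1.13, 0, 0.37 and 0 in SI_EE and 0, 0.11, 0 and 0.116 in SI_WT. The same 3 libraries led for Chrnb4, and the other 21 were at 0 to 0.372 CPM, with 11 of the 24 at 0. They are the libraries with the 3 highest thalamus and habenula sums. Gpr151, a gene of habenular neurons, was at 10.2 CPM in GH_WT 2 and 6.45 in GH_WT 4 against at most 1.36 in the other 22, with SI_EE 1 at 0.58. The part of habenular tissue in the receptor values was not tested.

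SI_WT against GH_WT gave a log2 fold change of -3.54 ± 1.01 (SE; edgeR adjusted p = 0.698) for Chrna3, and -0.33 without SI_EE 1, GH_WT 2 and GH_WT 4. GH_WT against GH_Con gave a log2 fold change of 2.46 ± 0.95 (SE; edgeR adjusted p = 1), and -0.75 without those 3 libraries, so the direction turned. SI_EE against GH_EE gave a log2 fold change of 2.41 ± 0.98 (SE; edgeR adjusted p = 0.516), and 1.05 without SI_EE 1. For Chrnb4, SI_EE against SI_Con gave a log2 fold change of 4.49 ± 1.99 (SE; edgeR adjusted p = 0.361), on 0 to 0.0528 CPM in SI_Con, and 2.92 without SI_EE 1. Fitted values of genes with so many zeros depend on the prior count and are no bound on the fold.

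**Figure D4:**
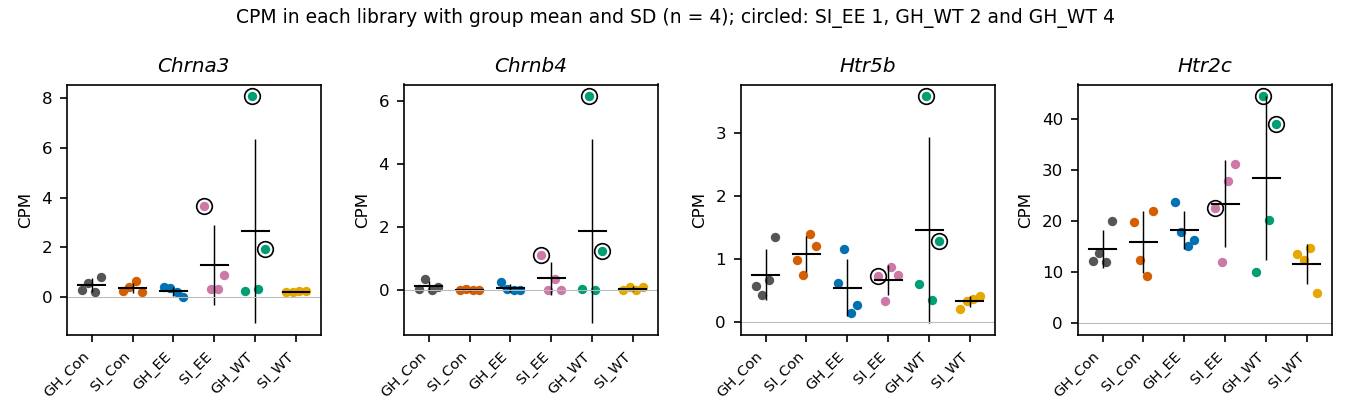
CPM of Chrna3, Chrnb4, Htr5b and Htr2c in each library by group, with the mean as a bar and the SD (n = 4) as a line. The circled libraries are SI_EE 1, GH_WT 2 and GH_WT 4, which hold the 3 highest Chrna3 and Chrnb4 values.

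The remaining nicotinic genes were lower. Chrnb3 (ENSMUSG00000031492, chromosome 8, 27368711 to 27399730, plus strand) was at 3.54, 4.23, 3.01 and 3.88, 3.4, 3.73, 3.89 and 2.42 and 5.22, 6.77, 3.23 and 3.1 CPM in GH_Con, GH_EE and GH_WT. Its isolated counterparts read 2.79, 4.7, 2.11 and 1.12, 1.06, 3.27, 2.17 and 3.03 and 3.24, 2.81, 2.86 and 1.53 CPM in SI_Con, SI_EE and SI_WT. The isolated libraries reached lower values with wide overlap, and isolation averaged over the arms gave a log2 fold change of -0.58 ± 0.21 (SE; edgeR adjusted p = 0.517). Chrna5, an accessory subunit of the alpha4 beta2 receptor in deep-layer pyramidal cells, ran from 0.151 to 4.17 CPM with SI_EE 1 lowest. Chrna6 ran from 0.0857 to 1.07 CPM, and the muscle-type subunits Chrna1 and Chrnb1 from 0.0756 to 0.956 and 0.255 to 1.26. Chrna1os, on the strand opposite to Chrna1, ran from 0.0568 to 0.844. Chrna2 (ENSMUSG00000022041, chromosome 14, 66135039 to 66152948, plus strand), which marks a class of deep-layer interneurons, was at 0.218, 0.399, 0.286 and 0.207 CPM in GH_Con and 0, 0.106, 0.158 and 0.0862 in SI_Con. These Chrna2 values did not overlap but came from at most 18 reads a library, and SI_Con against GH_Con gave a log2 fold change of -1.62 ± 0.95 (SE; edgeR adjusted p = 0.817).

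Every comparison was tested for the 42 genes that passed the filter, within a fit of all 20354 genes. By edgeR's quasi-likelihood test with Benjamini-Hochberg adjustment, 0 of 42 receptors passed an adjusted p of 0.05 in each of the 13 tests. Counts at an unadjusted p under 0.05 are followed by their range with any 1 library of the comparison left out. Isolation without treatment, SI_Con against GH_Con, called 0% of all genes and had 0 of 42 receptors (0 to 3) at an unadjusted p under 0.05, against 6.53% of all genes. Its smallest p among the receptors were Chrna2 (log2 fold change -1.62, adjusted p = 0.817) and Adrb3 (log2 fold change -0.62, adjusted p = 0.82). Adrb3 was at 0.517, 1.61, 0.711 and 0.604 CPM in SI_Con, and without SI_Con 2 the estimate was -1.11. Chrna2, Htr6 and Drd2 did not overlap between these groups, 3 of 42 beside 4.56% of all genes.

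EE within isolated mice, SI_EE against SI_Con, called 0% of all genes, and 2 of 42 receptors (0 to 5) had an unadjusted p under 0.05 beside 12.6% of all genes. They were Chrnb4 and Htr1a (log2 fold change -0.30, adjusted p = 0.389). Without SI_EE 1 the count was 0 and the Htr1a estimate -0.18. No receptor separated these groups (0 of 42, beside 4.63%). In the GH mice, GH_EE against GH_Con, 0.00491% of all genes were called and 2 of 42 receptors (1 to 4), Adrb3 and Htr1b, were under 0.05 unadjusted beside 6.32%. These same 2 were also the receptors that did not overlap, beside 8.55% of all genes. EE averaged over housing called 0% of genes, with 4 of 42 receptors (3 to 5) under 0.05 unadjusted beside 11.5%, among them Htr1b, Htr1a and Adrb3 (log2 fold change -0.57, adjusted p = 0.413). The Adrb3 estimate was -0.32 without SI_Con 2.

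In the WT arm, SI_WT against SI_Con called 0% of genes, with Adra2a and Htr5b, 2 of 42 (2 to 4), under 0.05 unadjusted beside 3.84%. Htr3a and Htr5b did not overlap, beside 2.11%. GH_WT against GH_Con called 0% of genes and had 4 of 42 (0 to 7) under 0.05 unadjusted beside 3.42%: Chrna3, Htr2c (log2 fold change 0.97, adjusted p = 1), Chrnb4 (log2 fold change 3.78, adjusted p = 1) and Adra2c. Chrm2 and Adra2c did not overlap, beside 4.23%. Without SI_EE 1, GH_WT 2 and GH_WT 4, 1 of 43 tested receptors was under 0.05 unadjusted in that comparison, and the estimates were 0.06 for Htr2c, -2.11 for Chrnb4 and -0.24 for Adra2c. Without GH_WT 2 alone it was 1.69 for Chrnb4. The WT contrast averaged over housing called 0% of genes and had 0 of 42 (0 to 2) under 0.05 unadjusted beside 2.52%; its smallest p were those of Chrnb4 (log2 fold change 2.75, adjusted p = 1) and Htr1a (log2 fold change -0.19, adjusted p = 1).

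Isolation under EE, SI_EE against GH_EE, called 0.00491% of genes and had 2 of 42 receptors (0 to 5), Chrna3 and Chrna4, under 0.05 unadjusted beside 8.7%, with 0 of 42 not overlapping beside 4.36%. Without SI_EE 1 that count was 0. Within the WT arm, SI_WT against GH_WT called 0% of genes and had 8 of 42 receptors (2 to 10) under 0.05 unadjusted beside 5.37%. These were Chrna3, Htr5b, Htr2c, Chrnb4, Adra2a, Adra2c, Chrnb3 (log2 fold change -0.81, adjusted p = 0.906) and Adra2b (log2 fold change -1.34, adjusted p = 0.913). Without SI_EE 1, GH_WT 2 and GH_WT 4, that count was 0 of 43, and the Adra2b estimate 0.40. The count was lowest, of the fits without 1 library, when GH_WT 2 was left out. Adra2c, Chrna3 and Adra2a did not overlap between SI_WT and GH_WT, beside 3.6% of all genes.

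Isolation averaged over the 3 arms called 0% of genes and had 2 of 42 (1 to 5) under 0.05 unadjusted, Chrnb3 and Chrnb2, beside 8.61%. For 33 of 42 receptors the estimate was lower with isolation, with a median log2 fold change of -0.17 beside 0.00 over all genes. Of all genes, 50.8% were higher. Without SI_EE 1 it was 31 of 43 receptors lower with a median of -0.09. Without the 4 libraries with lower long genes it was 33 of 43 with -0.10. Without SI_EE 1 and those 4 it was 24 of 43 with -0.06. In SI_EE against GH_EE, 30 of 42 were lower with a median of -0.31, and 24 of 43 with -0.07 without SI_EE 1. Of all genes, 52.9% were higher in that comparison, with a median of 0.02. For SI_EE against SI_Con, 20 of 42 were higher with a median of -0.14, and 32 of 43 with 0.14 without SI_EE 1, so the direction of the median turned. With every library kept, 50.7% of all genes were higher there, with a median of 0.01. In GH_EE against GH_Con, 28 of 42 were higher with a median of 0.15, beside 46.4% of all genes with a median of -0.02.

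The interactions with housing called 0% of genes each. For EE by housing, 0 of 42 receptors (0 to 4) were under 0.05 unadjusted beside 7.74%, the smallest p being Chrna3 (log2 fold change 2.77, adjusted p = 0.66) and Chrm1 (log2 fold change -0.84, adjusted p = 0.672). Without SI_EE 1 these estimates were 1.42 and -0.51. For WT by housing, 4 of 42 (2 to 7) were under 0.05 unadjusted beside 4.52%: Htr5b, Htr2c (log2 fold change -1.41, adjusted p = 1), Adra2a (log2 fold change -0.90, adjusted p = 1) and Chrna3 (log2 fold change -3.18, adjusted p = 1). Without SI_EE 1, GH_WT 2 and GH_WT 4 the estimates were -0.50 for Htr2c and 0.03 for Chrna3, and without GH_WT 2 alone -1.52 for Chrna3. A test of any difference among the 6 groups called 0.0491% of genes and no receptor, with 5 of 42 (1 to 7) under 0.05 unadjusted beside 8.23%, led by Chrna3 (adjusted p = 0.348) and Chrnb4 (adjusted p = 0.355). DESeq2 called 1 of 42 receptors in that test, Chrna3, and 0 in the others, and limma-voom called 0 in all 13. Comparisons that share a control group are not independent of each other.

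**Figure D5:**
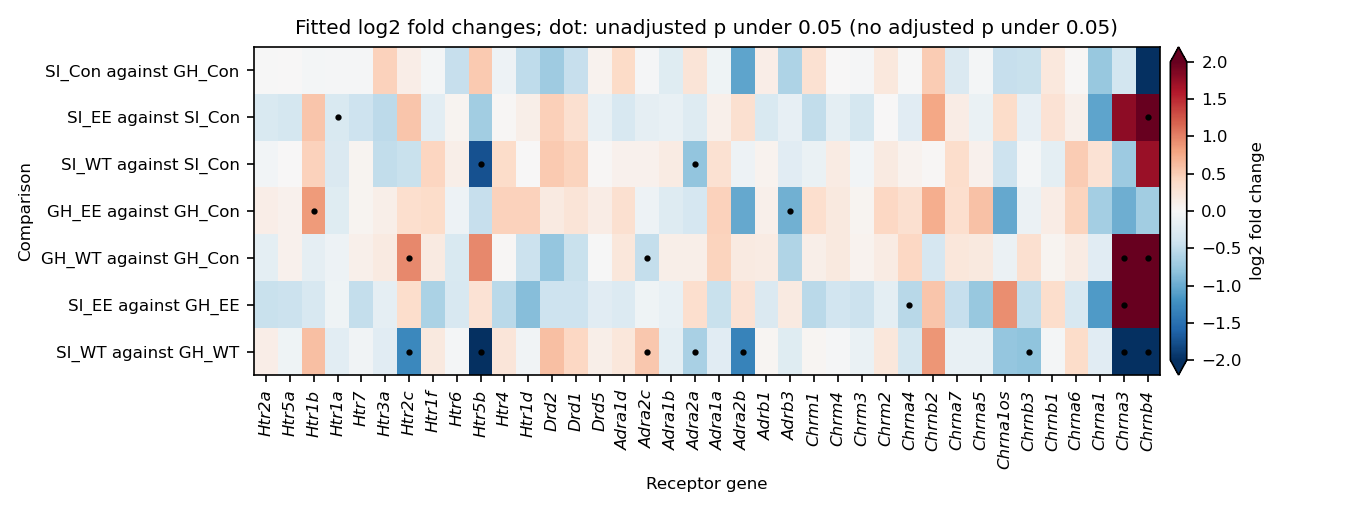
Fitted log2 fold changes of 38 of the receptor genes (columns, by family and level) in the 7 comparisons of 2 groups (rows), with a dot where the unadjusted edgeR p was under 0.05. Colour is deepest for Chrna3, Chrnb4 and Htr5b, and no cell has an adjusted p under 0.05.

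The fit also covered 4 lists of genes around these receptors, and edgeR called 0 genes of each list in each of the 13 tests. Of 20 genes that make, carry or break down the transmitters, 15 were tested. The transporters Slc6a2, Slc6a3 and Slc6a4, which act on brainstem axons, were at a median of 0 CPM, and the noradrenaline-making Dbh was at 0.0255. Other genes of this list that make or carry transmitters were read. Ddc, Th and Tph2 had medians of 5.93, 1.96 and 1.11 CPM, and Slc5a7, Chat and Slc18a3 of 5.96, 2.4 and 1.09. Tph1, Slc18a2 and Slc18a1 were at 0.179, 0.174 and 0 CPM. Of the degrading enzymes, Maoa was at 8.66, Ache at 8.61 and Maob at 7.73 CPM per kb. Unadjusted, 0 to 3 of the 15 were under 0.05 in a test.

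Of 30 G proteins and effectors, 29 were tested, with 0 to 3 under 0.05 unadjusted. Isolation averaged over the arms gave 26 of 29 lower estimates with a median log2 fold change of -0.11. That is the direction of the receptors in the same comparison, and the list's sum was also lowest in SI_EE 1, at 4459.6 CPM beside a median of 6636. Adcy5, the adenylyl cyclase known from striatum, ran from 67.2 CPM in SI_EE 1 to 429.9.

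The list of receptor kinases, arrestins and RGS proteins, which end receptor signalling, had 17 genes, all tested, with 0 to 4 under 0.05 unadjusted. Rgs4 was at 543 CPM in the median library and 99.4 in SI_EE 1, and Rgs8 at 821 in SI_EE 1 against at most 142 in the other 23. Of 11 nicotinic chaperones and Ly6 proteins, 10 were tested with 0 to 3 under 0.05 unadjusted. Lynx1, an inhibitor of nicotinic receptors, was at a median of 496 CPM and Ric3, an assembly chaperone, at 78.8.

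The spread between libraries set what these tests could show. Of the 39 receptors, 26 varied more between libraries of a group than genes of their abundance. The share of all genes that did so is not given here, so the count is no trait of receptors. These spreads include SI_EE 1, the lowest library for 19 of the 39. Drd1 had a biological coefficient of variation of 55.4% against 22% and Drd2 of 54.7% against 22.6%. With 4 libraries a group and such spreads, a p over the threshold does not show that the receptors were at the same level.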

How the data were processed

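Gene-level read counts were used as deposited; they are whole numbers with a different total in each library, so the authors had not scaled them. The build is mm10, per the submitters' processing notes. Aligner, counter, annotation and strandedness: not given in the sources used here. Of 56750 entries, 52073 (91.8%) could be paired with a symbol, and the rest hold 0.695% of reads. Library totals ran from 33683587 to 51274917 reads. RNA was extracted with Trizol, DNase-treated on columns and made into Illumina libraries under 1 batch date, per the labels' protocols.

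Counts were tested with a robust quasi-likelihood fit of all 24 libraries in edgeR 4.0.16 (R 4.3.3), with TMM scaling, the filterByExpr filter and no covariate, and Benjamini-Hochberg adjustment over 20354 genes. CPM uses TMM-scaled library sizes; log2 CPM uses a prior count of 2. Positions and exon lengths are from GENCODE M21 (GRCm38). DESeq2 1.42.0, limma-voom (limma 3.58.1), other scaling, no filter, a replicate block, covariates and left-out libraries were alternatives. The fit was tested on simulated data.

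The receptor genes, the gene lists and the tests were chosen with earlier results of these data known. Every receptor with a mean of at least 0.3 CPM is named, except 1 that is not reported here by name but is counted; values in every library are given for 13 receptors set in the design and for the 2 with the smallest p in each comparison, except where the text gives the groups of the comparison only. Other pathway genes named were singled out after their values were seen. Replicate numbers are not said to pair the libraries. Deviations of same-numbered libraries from different groups had a median correlation of -0.0131, beside -0.000538 for other numbers, and 4 of 60 same-numbered pairs exceeded 0.1. A median over pairs cannot exclude that some libraries were paired.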

Additional observations from a re-analysis of the deposited data

Results flagged for a closer look

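In 120 groups of 4 libraries (20 receptors in 6 groups), 12 held a library whose distance from its nearest neighbour passed Dixon's critical value for 4 samples at 95%, where chance gives about 6 (1 in 20). SI_EE 1 was that library in 6 of the 12: Htr2a at 5.12 CPM, Drd1 at 2.92, Chrm1 at 27.6, Chrm4 at 4.92, Chrna4 at 12.5 and Chrna7 at 2.87, all below the other SI_EE libraries. SI_WT 4, one of the libraries with lower long genes, was far below its group for Htr2a (23 CPM) and Chrna7 (1.85 CPM).

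GH_WT 3 stood above the other GH_WT libraries for Htr2a at 45.2 CPM, and SI_Con 2 above the other SI_Con libraries for Adrb1 at 35.8 CPM. GH_Con 2 stood above its group for Chrnb2 at 50.4 CPM. SI_Con 2 had Chrnb4 at 0.0528 CPM where the other SI_Con libraries had 0, a step of few reads.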

How the results depend on the processing

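The count of receptors called was 0 in every comparison under scaling by RLE factors, limma-voom, no filter, the replicate block, striatal and sex covariates, fits of only the groups compared, each of 24 left-out libraries (0 to 0), without the 4 libraries with lower long genes, and without the 2 sets added after seeing the data (SI_EE 1, GH_WT 2 and GH_WT 4; SI_EE 1 with those 4). The exception was DESeq2, with 1 receptor (Chrna3) in the test of any difference. With the replicate block 0 receptors and 1 gene were called in that test, against 10 genes without it; the block changed no receptor call. Among the estimates given, direction turned without SI_EE 1, GH_WT 2 and GH_WT 4 for GH_WT against GH_Con (Chrna3 -0.75, Chrnb4 -2.11), WT averaged over housing (Chrnb4 -0.18), WT by housing (Chrna3 0.03) and SI_WT against GH_WT (Adra2b 0.40); those libraries hold the highest Chrna3 and Chrnb4 values. It also turned with the striatal covariate for Drd1 in SI_Con against GH_Con (0.04); the cause was not tested. Some subsets fitted alone gave no value for Chrna3 or Chrnb4, which then missed the filter. Over all genes DESeq2 called 33 for SI_Con against GH_Con, 174 for SI_EE against SI_Con, 122 for EE averaged and 215 for any difference, where edgeR called 0, 0, 0 and 10. Leaving out SI_EE 2 gave 91 genes for SI_EE against SI_Con and 44 for any difference. Receptors with few reads (Chrna2, Chrnb4, Htr5b, Adrb3) are limited by depth.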

Other observations

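Wide steps like that of Chrnb2 were also seen in Arrb1, which encodes beta-arrestin 1 and was singled out after its values were seen. Arrb1 ran from 29.8 CPM in SI_Con 2 to 416 in SI_EE 4, and SI_EE held 122, 351, 73.3 and 416 CPM. The library at the top was SI_EE 4 for Arrb1 and SI_EE 1 for Chrnb2. The organic cation transporter Slc29a4, which takes up monoamines, was at 27.7 CPM in SI_EE 1 against at most 6.77 in the other 23 libraries.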
